A study of Mus musculus with 12 samples.

Results

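Metallothioneins are small cysteine-rich proteins that bind zinc and copper, and they belong with the zinc exporters (Slc30a family) and zinc importers (Slc39a family) to the machinery that sets free zinc in the brain. The members described here are 8 of the 31208 genes in the table: the metallothioneins Mt1, Mt2 and Mt3, the zinc-sensing transcription factor Mtf1, the exporters Slc30a1, Slc30a3 and Slc30a10, and the importer Slc39a10. They were taken from the table by symbol, and the symbols had been selected on the measured values of all 3 group comparisons, their counts, CPM and fold changes. The fold changes and adjusted p-values below therefore describe these genes and are not independent evidence about them.

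Brain tissue of 12 C57BL/6 mice aged 8 weeks was sequenced as full-length nanopore cDNA, with 4 mice per group. Sham mice were compared with mice at 6 h of cerebral ischemia, made by a filament that occluded the left middle cerebral artery (MCAO), and the ischemic mice had been preconditioned with either vehicle (sterile saline) or lactate by intracerebroventricular injection the day before surgery. The labels say lactate, and the study's methods name D-lactate for these libraries. For the sham mice neither source gives an injection, so that occlusion and injection cannot be told apart in a comparison with sham. The labels number the libraries as replicates of a group and do not name animals, and each library is called a mouse here. A p-value thus sets a group difference against the spread between libraries, 4 in each group compared. In edgeR this spread is estimated with information from all tested genes.

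Total counts ranged from 6815920 to 10677224 per mouse, and 3 counts, taken as the floor of detection, were 0.281 to 0.440 CPM (counts scaled to the total of the mouse). Vehicle mouse 1 stood apart from the other 11 mice on the second principal component of log2 CPM, which held 13.6% of the variance. Vehicle mouse 2 had a summed level of 6 choroid plexus marker genes of 1840 CPM, against 1.36 to 5.54 CPM in sham mice, 4.11 to 14.5 CPM in the other vehicle-treated mice and 9.94 to 19.1 CPM in the lactate group. Astrocyte, neuron and oligodendrocyte markers were present in every library of this brain tissue. In bulk tissue, fewer cells of a type and less RNA per cell cannot be told apart.

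Mtf1 is the factor through which cells read zinc: when zinc binds it, Mtf1 enters the nucleus and binds metal response elements in the promoters of Mt1, Mt2 and Slc30a1. Mt1 and Mt2 are also induced by glucocorticoids and by cytokine signaling through Stat3, and in brain they are made mostly by astrocytes. Mt3 is the brain-enriched metallothionein and responds little to metals, and Mt4 is the form of stratified epithelia. Slc30a1 moves zinc out across the plasma membrane, Slc30a3 loads zinc into synaptic vesicles of glutamatergic neurons, Slc30a10 exports manganese and Slc39a10 brings zinc into the cell.

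The metallothionein genes lie side by side on mouse chromosome 8 (GRCm38, GENCODE release M21), all on the plus strand. Mt3 (ENSMUSG00000031760) spans chr8:94152607-94154146, Mt2 (ENSMUSG00000031762) spans chr8:94172664-94173568 and Mt1 (ENSMUSG00000031765) spans chr8:94179082-94180327, with 5513 bases between Mt2 and Mt1. Mt4, upstream of Mt3, had 1 count in sham mouse 1 and 0 in the other 11 mice. Only 3 of the 4 metallothionein genes of the table were thus measurable in these libraries. The only annotated transcript of Mt4 is 398 bases long, shorter than the reads the authors kept. Its counts therefore do not tell whether it was expressed, and the part of depth or read length was not tested. Mtf1 (ENSMUSG00000028890) spans chr4:124802104-124849800 on the plus strand, and Slc30a3 (ENSMUSG00000029151) spans chr5:31086106-31108237 on the minus strand. On chromosome 1, Slc30a1 (ENSMUSG00000037434) spans chr1:191906767-191913247 and Slc30a10 (ENSMUSG00000026614) spans chr1:185454848-185468762, both on the plus strand, and Slc39a10 (ENSMUSG00000025986) spans chr1:46807544-46892852 on the minus strand.

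The promoter windows of these genes were searched for the core letters of a metal response element, TGCACNC and TGCGCNC, on both strands, in the 300 bases that run from 250 before to 50 after the start site in RefSeq (GRCm38.p6). All 8 members had a window. The 5 windows printed here are those of the 3 metallothioneins and of the exporters with at least 2 matches, 5′ to 3′ on the strand of the gene, with the matches in capitals.
Mt1, chr8:94178839-94179138, plus strand: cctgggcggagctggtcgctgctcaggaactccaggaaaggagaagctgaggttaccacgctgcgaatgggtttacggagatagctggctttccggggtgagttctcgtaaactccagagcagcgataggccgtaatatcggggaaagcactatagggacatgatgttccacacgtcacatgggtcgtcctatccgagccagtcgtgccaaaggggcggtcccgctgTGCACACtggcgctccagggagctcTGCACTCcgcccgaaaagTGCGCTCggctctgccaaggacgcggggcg
Mt2, chr8:94172368-94172667, plus strand: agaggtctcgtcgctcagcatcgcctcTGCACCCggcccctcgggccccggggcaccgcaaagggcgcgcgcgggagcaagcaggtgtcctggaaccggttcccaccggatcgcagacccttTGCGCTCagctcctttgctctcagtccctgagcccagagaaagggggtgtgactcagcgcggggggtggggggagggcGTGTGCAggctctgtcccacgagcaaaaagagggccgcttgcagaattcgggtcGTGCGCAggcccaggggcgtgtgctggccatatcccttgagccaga
Mt3, chr8:94152357-94152656, plus strand: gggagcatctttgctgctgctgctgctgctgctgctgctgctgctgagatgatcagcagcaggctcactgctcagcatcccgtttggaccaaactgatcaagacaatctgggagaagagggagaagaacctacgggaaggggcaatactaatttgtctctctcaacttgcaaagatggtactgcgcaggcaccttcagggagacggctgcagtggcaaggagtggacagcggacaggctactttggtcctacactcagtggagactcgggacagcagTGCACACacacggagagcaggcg
Slc30a1, chr1:191906531-191906830, plus strand: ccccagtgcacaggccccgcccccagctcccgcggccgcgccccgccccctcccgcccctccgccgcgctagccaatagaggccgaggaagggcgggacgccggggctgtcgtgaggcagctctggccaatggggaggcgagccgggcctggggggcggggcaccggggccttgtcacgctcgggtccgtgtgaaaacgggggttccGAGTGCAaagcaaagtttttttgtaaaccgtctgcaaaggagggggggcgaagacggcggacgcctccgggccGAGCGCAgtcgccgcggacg
Slc30a10, chr1:185454598-185454897, plus strand: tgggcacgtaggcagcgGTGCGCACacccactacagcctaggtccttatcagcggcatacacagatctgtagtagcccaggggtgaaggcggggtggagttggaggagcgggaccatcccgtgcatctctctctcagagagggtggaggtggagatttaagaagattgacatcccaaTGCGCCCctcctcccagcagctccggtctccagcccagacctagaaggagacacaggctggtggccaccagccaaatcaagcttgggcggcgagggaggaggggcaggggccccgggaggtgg

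Mt2 held 4 matches, which lay between bases -223 and 10 from the start site, and Mt1 held 3, all between bases -23 and 26. Slc30a10 also held 3, a pair of which overlap on opposite strands at its capital run of 8 letters. Slc30a1 held 2, Mt3 held 1 and Slc30a3 held 1 in 1 of its 2 windows. Mtf1 itself held 0, and Slc39a10 held 0 in both of its windows. Of all 32851 promoter windows of that length, 25.7% held at least 1 match, 7.11% at least 2, 1.97% at least 3 and 0.517% at least 4. A match is a description of the letters, not of a bound site. The counts and positions hold for the start site of the window searched. For Mt1 only the window printed above was searched, while the gene has 3 annotated coding transcripts of 549 to 1085 bases. Matches near any other start site of a gene were not counted.

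Mt1 and Mt2 were higher in both ischemic groups than in sham mice, with the larger fold changes in Mt2. Mt1 was at 400, 394, 367 and 375 CPM in the 4 sham mice (mean 384 ± 15.3, SD). In vehicle-treated ischemic mice it was at 966, 707, 845 and 1145 CPM (916 ± 186), and in lactate-treated ischemic mice at 1187, 1082, 1283 and 1134 CPM (1172 ± 86.1). Every ischemic mouse was above every sham mouse. The log2 fold change of Mt1 was 1.29 ± 0.14 (SE) in vehicle against sham, or 2.45-fold (edgeR adjusted p = 0.000318). It was 1.64 ± 0.08 in lactate against sham, or 3.12-fold (edgeR adjusted p = 1.09e-07).

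Mt2 was at 88.2, 72.3, 81.5 and 79.9 CPM in sham mice (80.5 ± 6.52, SD). It was at 390, 208, 265 and 486 CPM in vehicle-treated mice (337 ± 125) and at 435, 429, 473 and 446 CPM in lactate-treated mice (446 ± 19.5). Here too no ischemic mouse overlapped with a sham mouse. Mt2 rose 4.30-fold in vehicle against sham (log2 fold change 2.10 ± 0.23, edgeR adjusted p = 0.000252). In lactate against sham it rose 5.66-fold (log2 fold change 2.50 ± 0.09, edgeR adjusted p = 5.81e-09), the lowest p of all 17262 genes tested in that comparison. Without vehicle mouse 1, which stood apart, the log2 fold changes in vehicle against sham were 1.26 for Mt1 and 2.02 for Mt2. Without vehicle mouse 2, which carried the choroid plexus markers, they were 1.40 and 2.28.

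**Figure D1:**
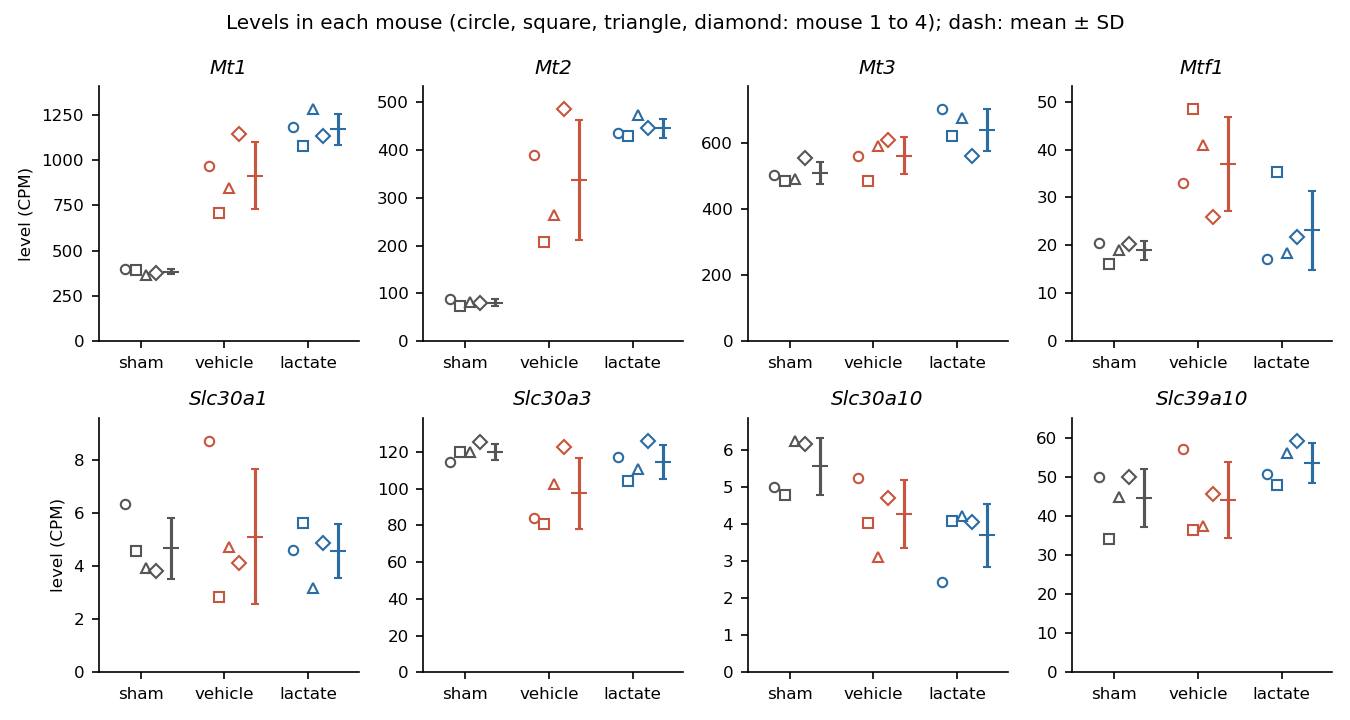
Level of each of the 8 genes in CPM (vertical axes, from 0) in the 12 mice, by group, with 1 symbol per mouse number and the mean ± SD beside the points. Mt1 and Mt2 sit above the sham mice in all 8 ischemic mice, while the points of Slc30a1, Slc30a3 and Slc39a10 overlap between groups.

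Mt3, the metallothionein enriched in neural tissue, moved far less. It was at 502, 484, 490 and 555 CPM in sham mice (508 ± 32.4, SD), at 560, 484, 590 and 609 CPM in vehicle-treated mice (561 ± 55.2) and at 701, 620, 676 and 558 CPM in lactate-treated mice (639 ± 63.6). The vehicle-treated mice overlapped with sham. All 4 lactate-treated mice were above the highest sham mouse, the lowest of them at 558 against 555 CPM. The log2 fold change was 0.18 ± 0.11 in vehicle against sham (edgeR adjusted p = 0.518) and 0.36 ± 0.09, or 1.28-fold, in lactate against sham (edgeR adjusted p = 0.0250). The latter call was lost when sham mouse 1 (adjusted p = 0.0627), sham mouse 3 (0.0750), lactate mouse 1 (0.0642) or lactate mouse 3 (0.0739) was left out, at log2 fold changes of 0.31 to 0.34.

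Mtf1, the zinc-sensing factor, was higher in vehicle-treated ischemic mice. Its level was 20.4, 16.2, 19.0 and 20.2 CPM in sham mice (19.0 ± 1.97, SD) and 33.0, 48.4, 40.96 and 25.8 CPM in vehicle-treated mice (37.0 ± 9.79). Lactate-treated mice were at 17.2, 35.2, 18.5 and 21.8 CPM (23.2 ± 8.26), and lactate mouse 2 alone lay in the range of the vehicle-treated mice. All 4 vehicle-treated mice were above the sham mice, and the lactate-treated mice overlapped with both other groups. Mtf1 rose 2.01-fold in vehicle against sham (log2 fold change 1.00 ± 0.20, edgeR adjusted p = 0.0240), and its log2 fold change was 0.32 ± 0.21 in lactate against sham (edgeR adjusted p = 0.346).

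The Mtf1 call was kept in 2 of the 8 fits that left out 1 mouse. Leaving out sham mouse 1, 2, 3 or 4 gave adjusted p-values of 0.0767, 0.0921, 0.0946 and 0.0705, and leaving out vehicle mouse 2 or 3 gave 0.0591 and 0.0750, at log2 fold changes of 0.85 to 1.05. Without vehicle mouse 1 or 4 the call held, at log2 fold changes of 1.06 and 1.15 (adjusted p = 0.0172 and 0.00696). Without lactate mouse 2 the log2 fold change of Mtf1 in lactate against sham was 0.04.

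By edgeR the 3 exporters were not called in any comparison. Slc30a1, the plasma membrane exporter and a described target of Mtf1, was near the low end of measurement, with 22 to 93 counts per mouse. It was at 3.82 to 6.33 CPM in sham mice, 2.85 to 8.71 CPM in the vehicle group and 3.16 to 5.63 CPM in the lactate group, and the 3 groups overlapped. Its log2 fold change was 0.19 ± 0.33 in vehicle against sham (edgeR adjusted p = 0.856) and 0.01 ± 0.25 in lactate against sham (edgeR adjusted p = 0.991). The highest value was that of vehicle mouse 1, and without this mouse the log2 fold change in vehicle against sham was -0.22.

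Slc30a3, the transporter of synaptic vesicles, was at 114, 120, 120 and 125 CPM in sham mice (120 ± 4.33, SD). Vehicle-treated mice were at 83.9, 80.8, 102 and 122 CPM (97.4 ± 19.2) and lactate-treated mice at 117, 104, 111 and 126 CPM (114 ± 9.30). In vehicle mice 1, 2 and 3 the level was below every sham mouse, and vehicle mouse 4 lay within the sham range. The log2 fold change was -0.27 ± 0.15 in vehicle against sham (edgeR adjusted p = 0.465) and -0.04 ± 0.10 in lactate against sham (edgeR adjusted p = 0.855). The summed level of 5 markers of glutamatergic neurons, which carry this transporter, was 906 to 1173 CPM in sham, 862 to 1464 CPM in the vehicle group and 967 to 1059 CPM in the lactate group, and 0 of the 5 markers was called by edgeR in either comparison with sham. At an unadjusted p under 0.05 there were 2 and 3 of them, DESeq2, the edgeR exact test and limma voom also called 0, and their part in the level of Slc30a3 was not tested. Of all tested genes 1.47% were called by edgeR in vehicle against sham and 12.3% in lactate against sham.

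Slc30a10, the manganese exporter, was the other gene of low level, at 4.79 to 6.25 CPM in sham mice, 3.11 to 5.24 CPM in the vehicle group and 2.43 to 4.22 CPM in the lactate group. All 4 lactate-treated mice were below the lowest sham mouse. The log2 fold change was -0.34 ± 0.24 in vehicle against sham (edgeR adjusted p = 0.585) and -0.55 ± 0.23 in lactate against sham (unadjusted p = 0.0342, edgeR adjusted p = 0.147). Its mean level was 4.27 CPM in the vehicle group and 3.70 CPM in the lactate group, against 5.55 CPM in sham mice.

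Slc39a10, the importer among the members, was at 34.2 to 50.1 CPM in sham mice, 36.4 to 57.2 CPM in the vehicle group and 47.9 to 59.4 CPM in the lactate group, with overlap between all groups. The log2 fold change was 0.02 ± 0.18 in vehicle against sham (edgeR adjusted p = 0.975) and 0.29 ± 0.13 in lactate against sham (unadjusted p = 0.0461, edgeR adjusted p = 0.176).

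**Figure D2:**
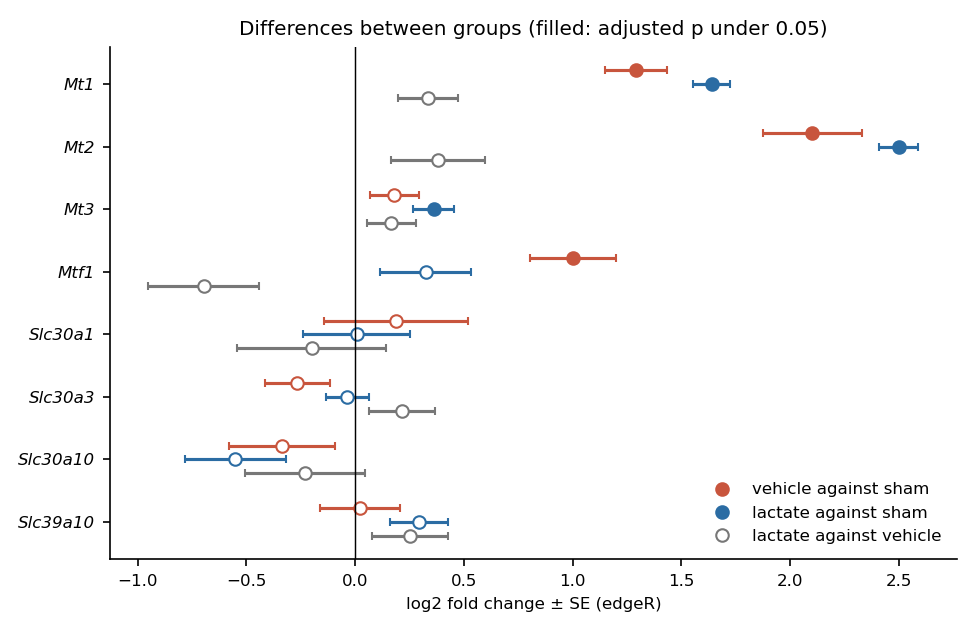
Log2 fold change of each of the 8 genes (horizontal axis, ± SE, edgeR quasi-likelihood test) in the 3 comparisons, with filled points at an adjusted p under 0.05. Mt1 and Mt2 lie between 1.29 and 2.50 in both comparisons with sham, and every point of lactate against vehicle is open.

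By this test 3 of the 8 members were called in vehicle against sham (Mt1, Mt2 and Mtf1, all higher), where 1.47% of all 17019 genes tested were called. In lactate against sham 3 of the 8 were called (Mt1, Mt2 and Mt3, all higher), where 12.3% of 17262 genes were called. Both comparisons use the same 4 sham mice. The limits of the study are a fold change of 1.5 or more and a P under 0.05. Its methods adjust P values by Benjamini-Hochberg but do not say which P the limit uses, and an unadjusted p was taken here. By these limits 3 members passed in vehicle against sham (background 9.52%) and 2 in lactate against sham (background 17.5%). The median log2 fold change of the 8 members was 0.18 and 0.31 in these comparisons, and that of all genes was 0.00 and -0.03. As the genes had been chosen with these contrasts known, nothing is read from the shares.

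Lactate against vehicle asks whether the injected lactate altered these genes in the ischemic brain. By edgeR 0 of the 8 members were called, where 0.00574% of 17419 genes (1 gene) were called. At an unadjusted p under 0.05 there were 2 members, and DESeq2, the edgeR exact test and limma voom also called 0. By the study's limits 1 member passed, Mtf1 (background 6.23%). Mt1 was 1.26-fold as high in lactate-treated as in vehicle-treated mice (log2 fold change 0.33 ± 0.14, unadjusted p = 0.0328, edgeR adjusted p = 0.536), and vehicle mouse 4 lay within the lactate range. Mt2 had a log2 fold change of 0.38 ± 0.22 (edgeR adjusted p = 0.636), and vehicle mouse 4 was above all 4 lactate-treated mice. Mtf1 had a log2 fold change of -0.70 ± 0.25 (unadjusted p = 0.0180, edgeR adjusted p = 0.517).

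Leaving out vehicle mouse 2, the lowest of its group in Mt1 and Mt2 and the highest in Mtf1, moved these log2 fold changes to 0.23, 0.21 and -0.54. Leaving out vehicle mouse 4, the highest in Mt1 and Mt2, moved them to 0.46, 0.61 and -0.83, and without lactate mouse 2 that of Mtf1 was -0.97. The edgeR adjusted p-values over these refits ran from 0.304 to 0.813. The log2 fold change of lactate against vehicle was 0.17 ± 0.11 for Mt3 and between -0.23 and 0.25 for the 4 transporters, with adjusted p-values of 0.695 to 0.892.

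The vehicle-treated mice differed among themselves in Mt2 more than did the mice of the other groups. The coefficient of variation of Mt2 was 8.10% in sham, 37.1% in the vehicle group and 4.37% in the lactate group. In vehicle-treated mice this was larger than that of 94.4% of the 923 genes whose mean level lay within 2-fold of that of Mt2, and their median was 13.9%. In sham and in lactate-treated mice it was larger than that of 28.9% and 17.5% of such genes. The coefficient of variation of Mt1 was 3.98%, 20.3% and 7.35% in the 3 groups, larger than that of 11.8%, 71.6% and 53.2% of genes of like level.

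Mt1 and Mt2 ordered the vehicle-treated mice alike, with mouse 4 highest, then 1, 3 and 2, and Mtf1 had the reverse order, with mouse 2 highest, then 3, 1 and 4. After the mean of each group was subtracted, Pearson's r over the 12 mice on the log2(CPM + 1) scale was 0.91 between Mt1 and Mt2, -0.79 between Mt1 and Mtf1 and -0.63 between Mt2 and Mtf1. These correlations are given as descriptions. The values of a mouse come from the same library, and the spread of the vehicle-treated mice takes much of their weight.

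**Figure D3:**
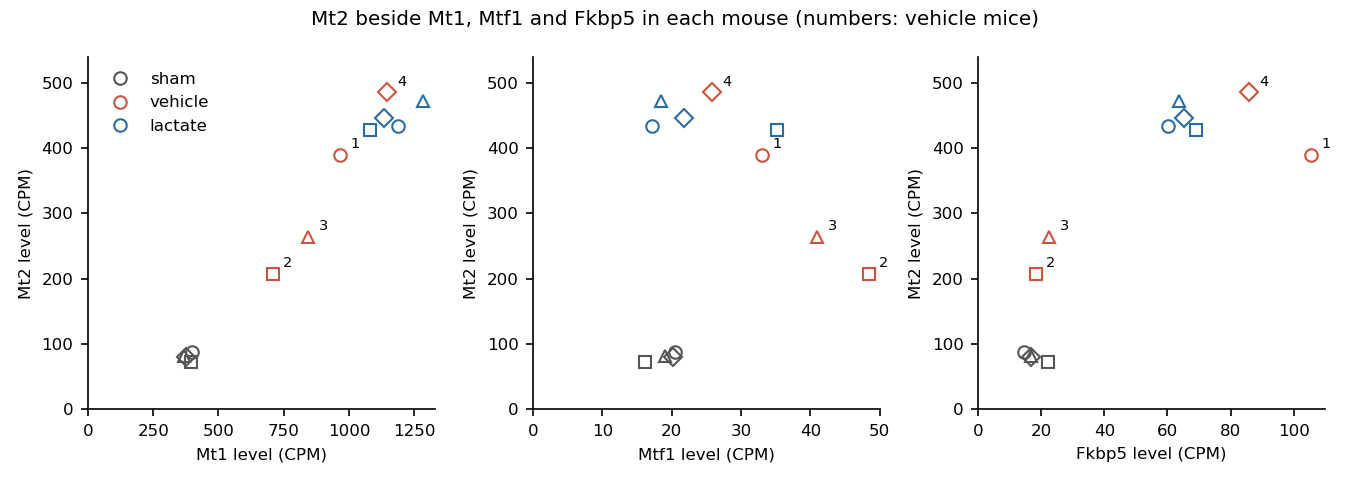
Level of Mt2 in CPM (vertical axes) against that of Mt1, Mtf1 and Fkbp5 (horizontal axes, CPM) in the 12 mice, with the 4 vehicle-treated mice numbered. The vehicle-treated mice rise along Mt1 and fall along Mtf1, from mouse 2 (208 CPM of Mt2) to mouse 4 (486 CPM).

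The genes most like a member by this measure were searched among 18133 others. For Mt1 they were Lrp6 (r = 0.93), Samd14 (0.93) and Kars (0.92), with Mt2 at rank 5. For Mt2 they were the unnamed locus ONT.15739 (0.93), Tril (0.93) and Srgap3 (0.92). For Slc30a3 they were the unnamed locus ONT.9046 (0.93), Pramef8 (0.93) and Zfyve19 (0.93). With 12 mice and this many genes, values of this size describe these libraries only.

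**Figure D4:**
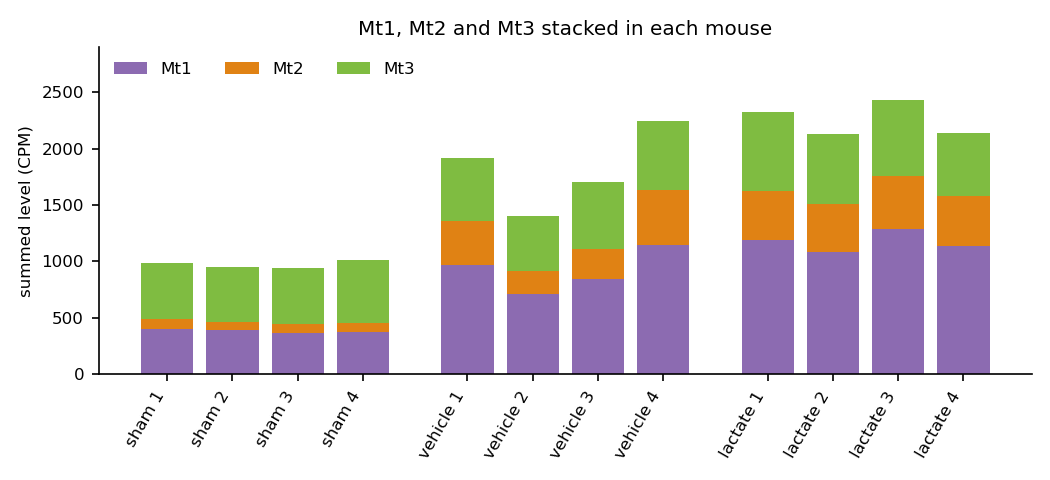
Levels of Mt1, Mt2 and Mt3 in CPM stacked for each of the 12 mice (vertical axis from 0). The sum is 939 to 1010 CPM in sham mice, 1399 to 2240 CPM in the vehicle group and 2130 to 2432 CPM in the lactate group.

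The makeup of the metallothionein counts differed between sham and ischemic mice. Mt3 made up 52.2% ± 1.96 (SD, n = 4) of the summed counts of Mt1, Mt2 and Mt3 in sham mice, 31.4% ± 3.81 in the vehicle group and 28.3% ± 1.76 in the lactate group. Mt2 made up 8.28% ± 0.615, 18.1% ± 3.41 and 19.8% ± 0.925. The ratio of Mt2 to Mt1 counts was 0.184 to 0.222 in sham mice, 0.294 to 0.424 in the vehicle group and 0.366 to 0.396 in the lactate group. The ranges of both ischemic groups lay above that of the sham mice.

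Per kilobase of the longest annotated transcript, the order of the mean levels in sham mice was Mt3 (947 CPM per kilobase), Mt1 (354), Mt2 (158), Slc30a3 (57.4), Slc39a10 (8.14), Mtf1 (2.48), Slc30a10 (0.952) and Slc30a1 (0.890). Slc30a10 and Slc30a1 were not apart beyond their spread. In vehicle-treated and lactate-treated mice the order of the first 6 was the same, and Mt1 had come near Mt3, at 844 against 1047 and at 1080 against 1192 CPM per kilobase. The order depends on the transcript taken as the length. Per kilobase of the shortest coding transcript, Slc30a3 stood above Mt2 in sham mice, at 294 against 207 CPM per kilobase, and Slc30a1 above Slc30a10, at 6.89 against 0.952, while Mt3 stayed above Mt1, at 1154 against 699. On that scale Mt1 was above Mt3 in both ischemic groups, at 1668 against 1275 in vehicle-treated and 2134 against 1452 in lactate-treated mice.

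The authors discarded reads shorter than 500 bases, which bears on the metallothioneins. The annotated coding transcripts of Mt2 are 388 and 511 bases long, those of Mt3 run from 440 to 536 bases and those of Mt1 from 549 to 1085 bases. The only annotated transcript of Mt4 is 398 bases long and does not reach 500 bases. Of the 13169 annotated genes tested in vehicle against sham, 44 (0.334%) have no transcript that reaches 500 bases. A level of Mt2 or Mt3 set beside that of another gene may thus miss shorter molecules, and how far was not tested. A share of shorter molecules that differed between groups would also alter the fold changes, shares and Mt2 to Mt1 ratios above. This was not tested either. The median log2 fold change of the 176 and 177 tested genes with a longest transcript under 700 bases was -0.09 in vehicle against sham and -0.07 in lactate against sham. Of these, 3 (1.70%) and 32 (18.1%) were called, beside 1.34% and 9.16% of the tested annotated genes, from which this class was taken.

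The zinc transporter families were followed whole, as Slc30a1 to Slc30a10 and Slc39a1 to Slc39a14. Of these 24 genes 20 passed the filter in each comparison with sham. In vehicle against sham 0 of 20 were called by edgeR or limma voom, 5 were at an unadjusted p under 0.05, and DESeq2 and the edgeR exact test called 1, Slc39a7, which is named because of these calls. Of all tested genes 1.47% were called by edgeR in that comparison. Against sham, the lactate group had 1 called higher and 1 lower of 20, where 12.3% of all tested genes were called. DESeq2 and the edgeR exact test called 3 there, with Slc39a7 as the additional gene, higher, and limma voom 1. The median log2 fold change of the 20 was -0.13 and -0.03 in these comparisons. In lactate against vehicle 0 of 19 were called by edgeR, DESeq2, the edgeR exact test or limma voom, with 1 at an unadjusted p under 0.05 by edgeR. There edgeR called 0.00574% of all tested genes.

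Slc39a14, an importer of zinc, iron and manganese that is induced by interleukin 6 in liver, was at 1.45, 1.45, 1.90 and 2.34 CPM in sham mice, 5.34, 2.20, 3.36 and 3.37 CPM in the vehicle group and 2.57, 6.11, 6.20 and 3.01 CPM in the lactate group. All lactate-treated mice were above the sham mice, and vehicle mouse 2 was not. It rose 2.54-fold in lactate against sham (log2 fold change 1.35 ± 0.34, edgeR adjusted p = 0.0222). In vehicle against sham its log2 fold change was 1.04 ± 0.34 (edgeR adjusted p = 0.186). The call was lost without sham mouse 1, 2 or 3 (adjusted p = 0.0635, 0.0560 and 0.0551) and without lactate mouse 2 or 3 (0.0630 and 0.0672).

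Slc39a2, another zinc importer, was at 3.30, 1.56, 3.40 and 1.23 CPM in sham mice and at 0.81, 0.60, 0.53 and 1.28 CPM in lactate-treated mice. These are 4 to 25 counts per mouse, and lactate mouse 4 overlapped with the sham mice. It passed the filter through the sham mice, all 4 of which reached a CPM of 1 beside 1 lactate-treated mouse, and it was not tested in lactate against vehicle. Its log2 fold change in lactate against sham, given as a description, was -1.48 ± 0.43 (edgeR adjusted p = 0.0372), and the log2 fold change in vehicle against sham was -1.20 ± 0.43 (edgeR adjusted p = 0.248). The call was lost without sham mouse 1 or 3 (adjusted p = 0.102 and 0.112) and without lactate mouse 1, 2 or 3 (0.0760, 0.0898 and 0.0937). It was also lost by limma voom (0.0647) and with Ensembl genes only (0.0592).

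**Figure D5:**
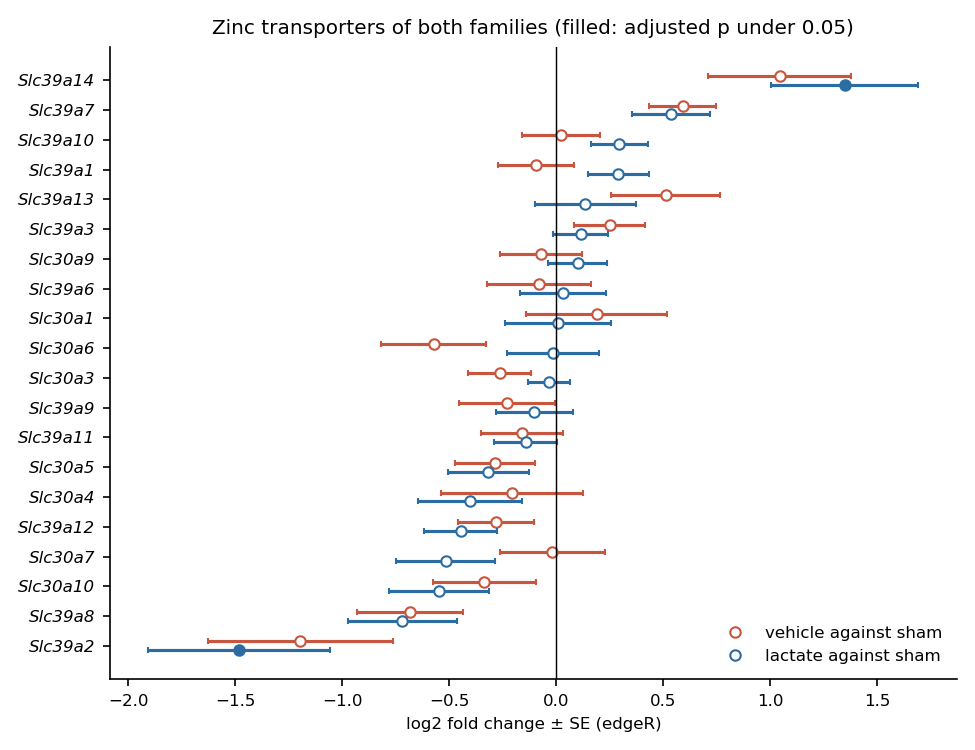
Log2 fold change (horizontal axis, ± SE, edgeR) of the 20 zinc transporter genes tested in vehicle against sham and in lactate against sham, ordered by the latter, with filled points at an adjusted p under 0.05. Slc39a14 at 1.35 and Slc39a2 at -1.48, both in lactate against sham, are the 2 filled points.

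Other genes described as targets of Mtf1 were followed as a list of 6 (Gclc, Ndrg1, Csrp1, Pgf, Selenoh and Cebpa). In vehicle against sham 0 of the 6 were called by edgeR, DESeq2, the edgeR exact test or limma voom, with 3 at an unadjusted p under 0.05 by edgeR. Of all tested genes 1.47% were called by edgeR in this comparison. Lactate against sham gave 2 of 6 called higher, where 12.3% of all tested genes were called. These were Gclc, a subunit of the enzyme that starts glutathione synthesis (log2 fold change 0.79 ± 0.19, edgeR adjusted p = 0.0144), and Cebpa, a transcription factor (1.32 ± 0.36, edgeR adjusted p = 0.0304). The Cebpa call was lost without sham mouse 1 or 4 (adjusted p = 0.0825 and 0.0785) and without lactate mouse 2, 3 or 4 (0.0691, 0.0590 and 0.0601). Their log2 fold changes in vehicle against sham were 0.53 ± 0.19 and 1.39 ± 0.47. Among tested genes with at least 3 matches in a promoter window, 4 of 407 were called in vehicle against sham (0.983%), all higher and including Mt1 and Mt2, and 7.37% in lactate against sham. In the same order of comparisons, the shares were 1.36% and 9.39% among genes with 0 matches, 1.51% and 9.07% with 1 match, and 1.11% and 8.56% with 2 matches.

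Of 10 genes of copper handling, 8 were tested, and 1, Cp, was called in both comparisons with sham. In lactate against sham 1 of 8 is near the 12.3% of all tested genes, and in vehicle against sham the share of all genes was 1.47%. Cp encodes ceruloplasmin, the copper-carrying ferroxidase, and its log2 fold change was 1.42 ± 0.24 in vehicle against sham (edgeR adjusted p = 0.0101) and 1.65 ± 0.23 in lactate against sham (edgeR adjusted p = 0.000740).

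The inputs other than zinc that are known to raise Mt1 and Mt2 were followed in the same fits. Of 6 genes induced by glucocorticoids, 5 were tested, and 4 were called higher by edgeR in each comparison with sham, where 1.47% and 12.3% of all tested genes were called. The edgeR exact test called 5 in vehicle against sham and 4 in lactate against sham. Sgk1, a kinase, had log2 fold changes of 1.67 ± 0.14 and 1.76 ± 0.12 (edgeR adjusted p = 2.23e-05 and 1.17e-06), and Tsc22d3 and Zbtb16 were also called in both. The Zbtb16 call in vehicle against sham was lost without sham mouse 2 or 4 (adjusted p = 0.0521 and 0.0550), and that of Per1 without sham mouse 2, 3 or 4 (0.0609, 0.0684 and 0.0618). By this test Per1, a clock gene, was the other gene called in vehicle against sham, and Fkbp5, a chaperone of the glucocorticoid receptor, the other one called in lactate against sham. Between lactate and vehicle the log2 fold change of Per1 was -1.12 ± 0.28 (edgeR adjusted p = 0.449) and that of Fkbp5 0.12 ± 0.46 (edgeR adjusted p = 0.962). There 0 of the 5 tested genes were called by edgeR, its exact test or limma voom, with 1 at an unadjusted p under 0.05, and DESeq2 called 1 lower. Of all tested genes 0.00574% were called by edgeR in that comparison. Fkbp5 was at 105, 18.3, 22.5 and 86.0 CPM in the 4 vehicle-treated mice, which is high in the same mice 1 and 4 as Mt2 and within or near the sham range of 14.5 to 22.1 CPM in mice 2 and 3. It was at 60.2 to 69.1 CPM in lactate-treated mice. Pearson's r with Fkbp5 over the 12 mice, after subtraction of group means, was 0.86 for Mt2 and 0.80 for Mt1. Fkbp5 was singled out after its values were seen. The r of Mt2 with the other 4 tested genes of the list was 0.33 for Tsc22d3, 0.02 for Zbtb16, -0.14 for Sgk1 and -0.46 for Per1.

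Of 8 genes of the interleukin 6 and Stat3 response, 7 were tested. By edgeR 3 were called higher in vehicle against sham and 5 in lactate against sham (1.47% and 12.3% of all tested genes), but Timp1 and Lcn2 in both comparisons, and Osmr in lactate against sham, passed the filter through the ischemic mice, where they are high, so these counts are a description. Socs3, the feedback inhibitor of this signaling, had log2 fold changes of 2.76 ± 0.28 and 2.96 ± 0.26 (edgeR adjusted p = 0.000139 and 9.68e-06), and all 4 sham mice reached a CPM of 1. Timp1 was at 0.407 to 0.863 CPM in sham, 7.12 to 14.8 CPM in the vehicle group and 22.9 to 32.3 CPM in the lactate group, and Lcn2 at 0 to 0.247, 21.5 to 27.3 and 41.3 to 45.8 CPM. Stat3 itself was called in lactate against sham (0.87 ± 0.17, edgeR adjusted p = 0.00564), and its log2 fold change in vehicle against sham was 0.91 ± 0.23 (edgeR adjusted p = 0.0858). DESeq2 and the edgeR exact test called 4 genes of the list in vehicle against sham, and limma voom 3. Osmr, a subunit of the oncostatin M receptor, was the fifth gene called in lactate against sham (2.40 ± 0.56, edgeR adjusted p = 0.0142). It was at 0 to 1.05 CPM in sham and 2.04 to 3.13 CPM in the lactate group, and its log2 fold change in vehicle against sham was 1.82 ± 0.67 (edgeR adjusted p = 0.253). In lactate against vehicle 0 of the 7 were called by edgeR or limma voom, with 2 at an unadjusted p under 0.05, and DESeq2 and the edgeR exact test called 2 higher. Of all tested genes 0.00574% were called by edgeR in that comparison. The log2 fold changes there were 1.38 ± 0.24 for Timp1 and 0.85 ± 0.14 for Lcn2 (edgeR adjusted p = 0.265 for both). Pearson's r of Socs3 with Mt2 within groups was -0.27.

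The summed level of 6 astrocyte markers, whose cells are the main source of Mt1 and Mt2 in brain, was 560 to 841 CPM in sham, 644 to 790 CPM in the vehicle group and 665 to 822 CPM in the lactate group. The ranges overlapped, and 0 of the 6 markers were called in vehicle against sham and 1, Gjb6, in lactate against sham (log2 fold change 0.91 ± 0.16, edgeR adjusted p = 0.00287). In vehicle against sham 1 was at an unadjusted p under 0.05 by edgeR, DESeq2 and the edgeR exact test called 1, and limma voom called 0. Beside this and the following lists, edgeR called 1.47% of all tested genes in vehicle against sham and 12.3% in lactate against sham. The summed level of 5 neutrophil markers was 0.557 to 5.01 CPM in sham, 8.95 to 74.1 CPM in the vehicle group and 17.4 to 41.5 CPM in the lactate group. Within the vehicle group it was highest in mice 3 and 2, at 74.1 and 54.1 CPM, the mice with the lowest Mt1 and Mt2, and its part in their levels was not tested. The summed level of 5 microglia markers was lower in every ischemic mouse than in any sham mouse, at 124 to 142 CPM in sham, 77.6 to 106 CPM in the vehicle group and 101 to 112 CPM in the lactate group. Cx3cr1 and P2ry12 were called lower in vehicle against sham (log2 fold changes -1.21 ± 0.23 and -1.01 ± 0.20, edgeR adjusted p = 0.0201 and 0.0275), and P2ry12 in lactate against sham (-1.10 ± 0.19, edgeR adjusted p = 0.00265). The other microglia genes did not share this direction throughout. In lactate against sham Tmem119 was at 0.49 ± 0.24, Aif1 at 0.29 ± 0.13 and Csf1r at 0.03 ± 0.13, and the median log2 fold change of the list was -0.18 in vehicle against sham and 0.03 in lactate against sham. That of 5 red blood cell markers was also below the sham range in all ischemic mice, at 560 to 633 CPM in sham, 333 to 500 CPM in the vehicle group and 375 to 499 CPM in the lactate group. Lactate against sham gave 4 of these 5 genes called lower, where 12.3% of all tested genes were called in either direction. For vehicle against sham edgeR and limma voom called 0, with 4 at an unadjusted p under 0.05 by edgeR, and DESeq2 and the edgeR exact test called 1. Summed over 5 striatal neuron markers, the level was 269 to 394 CPM in sham, 139 to 451 CPM in the vehicle group, with mice 2 and 4 lowest at 157 and 139 CPM, and 432 to 566 CPM in the lactate group. Of these 5, Ppp1r1b was called higher in lactate against sham (0.67 ± 0.13, edgeR adjusted p = 0.00564). For 5 oligodendrocyte markers the sum was 6867 to 10992 CPM in sham, 5431 to 10224 CPM in the vehicle group, with mouse 4 lowest, and 8668 to 9739 CPM in the lactate group. Of these, Mog was called lower in lactate against sham (-0.60 ± 0.14, edgeR adjusted p = 0.0125), and 0 were called by edgeR in vehicle against sham. The part of these lists in the results was not tested.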

How the data were processed

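Brain RNA of 12 mice (4 sham, 4 vehicle, 4 lactate) was analysed, with groups taken from the labels. The authors sequenced PCR-amplified full-length cDNA on a nanopore platform, removed reads of low quality, under 500 bases or from ribosomal RNA, mapped full-length non-chimeric reads with minimap2 and built isoforms with pinfish and gffcompare. The deposited counts are whole reads per gene without normalization, and the deposited CPM are those counts scaled to the total of each mouse. The submitters' processing notes name GRCm38 and DESeq 1.10.1. How reads were assigned to genes, and the annotation, are not given in the sources used here. The authors' own P values and fold changes in the table were not used, and 4 lines that name no gene were left out.

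The member genes, gene lists and tests were chosen with earlier results of these data known. The text names all 8 members, other zinc transporters where called, some genes of the lists, mostly called ones, and the 3 genes most like Mt1, Mt2 and Slc30a3. Pairs of groups were fitted in edgeR 4.0.16 (R 4.3.3) by the quasi-likelihood test with TMM factors, two-sided, keeping genes that reached a CPM of 1 in 4 or more of the 8 mice. P values were adjusted by Benjamini-Hochberg across every tested gene, and a gene was called at an adjusted p under 0.05. The scripts were tested on simulated data. DESeq2 1.42.0, the edgeR exact test, limma voom (limma 3.58.1), other scalings and filters, a block on mouse number and leaving out each mouse were tried. Positions came from GENCODE M21 and promoters from RefSeq. The reads have no molecular identifiers, so the floor covers counting error alone.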

Additional observations from a re-analysis of the deposited data

Results flagged for a closer look

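Slc30a10 in lactate mouse 1 was at 2.43 CPM, from 18 counts, while the other lactate-treated mice were at 4.06 to 4.22 CPM, and its gap to the nearest of them was 0.910 of the range of the group, above Dixon's critical value for 4 samples. This was 1 of 36 groups of 4 mice examined for 12 genes, and chance alone marks about 1 group in 20.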

How the results depend on the processing

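Mt1 and Mt2 kept their direction and their call against sham in all 18 refits. Their log2 fold changes ranged from 1.17 to 1.40 and from 1.88 to 2.28 in vehicle against sham, and from 1.59 to 1.68 and from 2.45 to 2.55 in lactate against sham. Mtf1 in vehicle against sham and Mt3 in lactate against sham kept their call in 11 and 12 of 18. Beside the left-out mice given above, Mt3 lost its call without a filter on low counts (adjusted p = 0.0544). Same-numbered mice are different animals, and their deviations correlated between -0.17 and 0.17. The labels give no pairing by number, and these correlations cannot exclude a shared handling batch. With a replicate block 198, 2283 and 1 genes were called in the 3 comparisons, and 2, 2 and 0 members, Mtf1 and Mt3 being lost at adjusted p-values of 0.0629 and 0.0518.

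In vehicle against sham DESeq2 called 476 genes, the edgeR exact test 503 and the study's limits 1620, against 250, and leaving out a mouse gave 114 to 433. In the zinc transporters DESeq2 and the exact test called 1 and the study's limits 4. In lactate against sham leaving out a mouse gave 1320 to 2108 genes, and restriction to Ensembl genes gave 1003. The zinc transporters called, against 2, were 3 by DESeq2 and by the exact test, 1 by limma voom and 1 with Ensembl genes only, and 0 to 4 when a mouse was left out. In lactate against vehicle DESeq2 called 62 genes, the exact test 48, limma voom 0, no filter 2, Ensembl genes only 2 and the study's limits 1085 (1 member), and leaving out a mouse gave 0 to 5.

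Differences near 0 changed sign. Slc39a10 in vehicle against sham was -0.0170 with library totals only and -0.13 to 0.11 when a mouse was left out. Slc30a1 was -0.22 to 0.39 in vehicle against sham, -0.12 to 0.17 in lactate against sham and -0.40 to 0.22 in lactate against vehicle when a mouse was left out. In lactate against sham it was -0.0265 with library totals only, -0.0447 without a filter and -0.0168 with a CPM of at least 0.5. Slc30a3 in lactate against sham was 0.00648 with Ensembl genes only and -0.0826 to 0.00198 when a mouse was left out. Mt2 shares per transcript length were 10.8%, 25.2% and 27.8% in sham, vehicle and lactate. The causes were not tested. Depth limits Slc30a1, Slc30a10, Slc39a14 and Slc39a2, which have under 100 counts in every mouse.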
